A study of Mus musculus with 12 samples.

Results

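Proteasomes carry interchangeable catalytic subunits, and the balance between the interferon-inducible and the constitutive set was measured here in intracranial melanoma. The members are 9 genes of 47069 in the table, chosen by name: the inducible catalytic subunits Psmb8, Psmb9 and Psmb10, their constitutive counterparts Psmb5, Psmb6 and Psmb7, and the genes of the PA28 activator caps Psme1, Psme2 and Psme3. Psmb8 was paired with Psmb5, Psmb9 with Psmb6, Psmb10 with Psmb7, and Psme1 and Psme2 with Psme3. All 9 members were found in the table and all 9 passed the filter on low counts.

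The tumors were B16 F1, a pigmented mouse melanoma line, grown from 100000 cells placed in the brain of C57BL/6 mice and taken at day 9. The 12 RNA-seq libraries form 4 groups of 3, described as biological triplicates. Mice with the intracranial tumor only received control IgG (intracranial-only IgG) or a combination of anti-CTLA-4 and anti-PD-1 antibodies (intracranial-only therapy), and mice that also bore an extracranial tumor received the same agents (both-tumor IgG and both-tumor therapy). All 4 groups carried the brain tumor and an injected antibody, no group was antibody-free, and the model is 1 cell line. The age of the mice and the site of the extracranial tumor were not among the labels used. The study asks whether the effect of the antibodies in the brain depends on disease outside it.

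The proteasome is a barrel whose inner rings cut proteins into peptides. Interferon gamma, made by T cells and natural killer cells, induces Psmb8, Psmb9 and Psmb10, which replace Psmb5, Psmb6 and Psmb7 in newly built particles and shift cleavage toward peptides that fit MHC class I. It also induces Psme1 and Psme2, which form the PA28 alpha-beta cap, while Psme3 forms the nuclear PA28 gamma cap and is not part of that response. Leukocytes express the inducible set constitutively, and many tumor cells express little of it until exposed to interferon.

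Short promoter stretches are shown for the members in which an interferon or stress motif was found. Motif letters are in capitals, each line reads 5′ to 3′ on the gene's strand, and sequences are from RefSeq on GRCm38.p6. An interferon-stimulated response element (TTTC, any 2 bases, TTTC) stood in Psme1 at chr14:55578493-55578522, plus strand. Its first letter was at base 10, with the start counted as base 1. A gamma-activated site (TTCNNNGAA) stood in Psmb8 at chr17:34198088-34198117, plus strand, 97 bases before the start. An antioxidant response element (TGACNNNGC) stood in Psmb6 at chr11:70525338-70525367, plus strand, and in Psmb5 at chr14:54618023-54618052, minus strand, 9 and 47 bases before the start.
Psme1: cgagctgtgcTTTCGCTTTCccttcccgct
Psmb8: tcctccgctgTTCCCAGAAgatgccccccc
Psmb6: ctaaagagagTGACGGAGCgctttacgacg
Psmb5: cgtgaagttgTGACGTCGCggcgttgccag
Windows of 250 bases before to 50 after the start were searched on both strands for these 3 motifs. Of 32851 mouse windows, 3.44% held the response element, 8.3% the gamma-activated site and 12.4% the antioxidant element, against 1, 1 and 2 of the 9 windows of the 8 members matched. None of the 3 motifs was found for Psmb9, Psmb10, Psme2, Psmb7 or Psme3, and not every member had a window. Motif matches describe letters only.

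Gene positions are on GRCm38. Psmb8 (ENSMUSG00000024338) lies at chr17:34197721-34201454 and Psmb9 (ENSMUSG00000096727) at chr17:34181987-34187764, both in the MHC. Psmb9 runs on the minus strand away from Tap1, the peptide transporter gene, and 225 bases lie between their RefSeq starts. Psmb10 (ENSMUSG00000031897) lies at chr8:105935735-105938444. Psme1 (ENSMUSG00000022216) at chr14:55578123-55581529 and Psme2 (ENSMUSG00000079197) at chr14:55587441-55591113 are neighbours. Psmb5 (ENSMUSG00000022193) lies at chr14:54614119-54618022 and Psmb6 (ENSMUSG00000018286) at chr11:70525367-70527858. Psmb7 (ENSMUSG00000026750) lies at chr2:38588036-38644087 and Psme3 (ENSMUSG00000078652) at chr11:101316213-101323537.

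Library totals ran from 18427495 to 22294182 reads, and depth was lowest for the inducible genes in the low libraries. Psmb8 had at least 50 reads and Psmb9 at least 48 in each library, against at least 1387 for Psmb5. Psmb9 shares 212 exonic bases with Tap1 and Psmb7 shares 405 with Nek6, each on the opposite strand, and the sources used here do not say whether counting used strand. Genes and pseudogenes whose names mark them as copies of a member took few reads, at most 112 in all for Psme2b. Their sequence likeness, and reads that map to both places, were not examined. Melanoma markers (Pmel, Mlana, Tyr, Tyrp1, Dct, Mitf, Sox10) summed to between 20617 and 29680 CPM (counts scaled to library size) in every library. In the edgeR test 0 of these 7 passed in any comparison, against 0% to 45.4% of all genes. Within 3 groups 1 library stood apart from the others in the inducible genes: library 2 of intracranial-only IgG and library 3 of intracranial-only therapy were high, and library 2 of both-tumor IgG was low. The last has a sample name with a different ending from those of all other libraries, whose meaning the labels do not give. Inducible differences that these libraries moved by a large amount are given with and without them.

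Levels are in FPKM, reads scaled by gene length and library total, which allows genes to be compared per length. Psmb8, the inducible chymotrypsin-like subunit, had 2.01, 154 and 2.32 FPKM in the intracranial-only IgG libraries. It had 1.87, 4.68 and 67.8 FPKM under therapy in intracranial-only mice, and 45.4, 6.25 and 56.6 FPKM in both-tumor IgG. The both-tumor therapy libraries had 93.2, 262 and 172 FPKM. These 3 libraries were above every library of intracranial-only therapy and both-tumor IgG. Library 2 of intracranial-only IgG ranked among them, above the lowest of the 3.

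Psmb9, the inducible counterpart of the caspase-like subunit, ran beside Psmb8. It had 2.40, 200 and 2.35 FPKM in intracranial-only IgG, 2.64, 4.65 and 88.8 in intracranial-only therapy, 58.9, 8.83 and 62.3 in both-tumor IgG, and 113, 342 and 197 in both-tumor therapy. Psmb9 was between 0.994 and 1.41 times Psmb8 in every library. Psmb8 spanned 140.5-fold and Psmb9 145.4-fold from the lowest to the highest library, and 99.2% and 99.3% of tested genes varied less, by the SD of log2 values.

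Psmb10, the inducible trypsin-like subunit, started from a higher level. It had 28.7, 294 and 34.0 FPKM in intracranial-only IgG and 26.6, 33.6 and 172 in intracranial-only therapy. It had 127, 42.9 and 125 FPKM in both-tumor IgG and 212, 459 and 319 in both-tumor therapy. Its span was 17.2-fold. Psmb10 was 14.3, 14.7 and 14.3 times Psmb8 in the 3 libraries with the lowest Psmb8, and 1.75 to 2.81 times Psmb8 in the 7 libraries where Psmb8 was 45.4 FPKM or more. The inducible subunits were not in 1 fixed proportion, and Psmb10 made up most of the inducible FPKM in the low libraries.

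Of the activator caps, Psme1 had 77.9, 390 and 71.0 FPKM in intracranial-only IgG and 81.5, 79.9 and 216 in intracranial-only therapy. It had 181, 96.2 and 183 FPKM in both-tumor IgG and 255, 556 and 386 in both-tumor therapy. Psme2 had 61.3, 381 and 53.9 FPKM, then 63.5, 74.8 and 247, then 188, 81.6 and 197, then 279, 508 and 369 in the same order of groups. The 2 genes stayed close, with Psme2 at 0.759 to 1.14 times Psme1, and they spanned 7.83-fold and 9.42-fold, less than the inducible catalytic genes.

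The constitutive genes covered a narrow range. Psmb5, the standard chymotrypsin-like subunit, had 103, 114 and 95.0 FPKM in intracranial-only IgG, 112, 91.8 and 87.4 in intracranial-only therapy, 83.9, 125 and 86.4 in both-tumor IgG and 90.5, 80.5 and 76.8 in both-tumor therapy. Psmb6, the caspase-like subunit, had the highest FPKM of the catalytic members in 9 of the 12 libraries, and lay between 186 and 288 FPKM in all. Psmb7, the trypsin-like subunit, had 94.7, 80.9 and 70.0 FPKM in intracranial-only IgG, 88.3, 87.4 and 83.4 in intracranial-only therapy, 69.7, 87.3 and 70.8 in both-tumor IgG and 67.1, 60.0 and 63.2 in both-tumor therapy. Psme3, whose cap serves nuclear protein turnover, had 244, 215 and 240 FPKM in intracranial-only IgG, 259, 254 and 253 in intracranial-only therapy, 244, 269 and 212 in both-tumor IgG and 212, 154 and 185 in both-tumor therapy. Spans were 1.62-fold, 1.55-fold, 1.58-fold and 1.75-fold for Psmb5, Psmb6, Psmb7 and Psme3, and 23.5% to 33.1% of tested genes varied less.

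**Figure D1:**
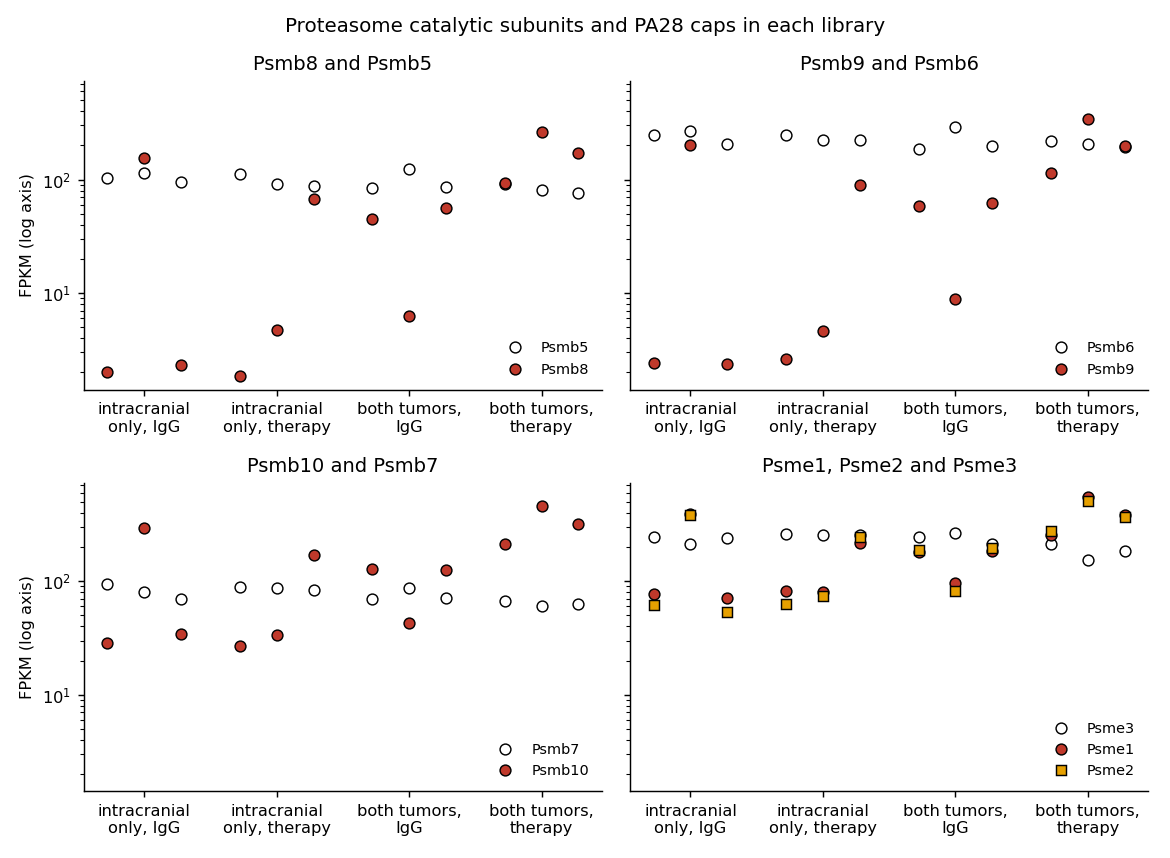
FPKM of each member (vertical, log axis) in each of the 12 libraries, by group, replicates 1 to 3 from left to right; filled symbols are inducible genes and open circles their constitutive counterparts. Open circles form a level band, while Psmb8 runs from 1.87 to 262 FPKM and all 3 both-tumor therapy libraries are high.

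Group order by mean FPKM was the same for all 5 inducible genes. For Psmb8 it was both-tumor therapy, 176 ± 84.5 (SD, n = 3), intracranial-only IgG, 52.7 ± 87.6, both-tumor IgG, 36.1 ± 26.4, and intracranial-only therapy, 24.8 ± 37.3. The lower 3 groups overlapped each other, and the second place of intracranial-only IgG came from its library 2. Psme3 had the reverse extremes, with 256 ± 3.40 FPKM in intracranial-only therapy and 184 ± 29.2 in both-tumor therapy.

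Within-library ratios of FPKM do not depend on library size. The Psmb8 to Psmb5 ratio was 0.0195, 1.35 and 0.0244 in intracranial-only IgG and 0.0166, 0.0510 and 0.776 in intracranial-only therapy. It was 0.541, 0.0501 and 0.655 in both-tumor IgG and 1.03, 3.25 and 2.24 in both-tumor therapy. Psmb8 thus exceeded Psmb5 in 4 of 12 libraries, all 3 of both-tumor therapy and library 2 of intracranial-only IgG. The Psmb9 to Psmb6 ratio was above 1 in 2 of 12 libraries, with 0.519, 1.66 and 1.01 in both-tumor therapy against 0.317, 0.0306 and 0.312 in both-tumor IgG. The Psmb10 to Psmb7 ratio was above 1 in 7 of 12 libraries, with 3.15, 7.65 and 5.04 in both-tumor therapy against 1.83, 0.492 and 1.77 in both-tumor IgG. Library 2 of intracranial-only IgG had 0.741 for Psmb9 to Psmb6 and 3.63 for Psmb10 to Psmb7, above library 1 of both-tumor therapy. The other intracranial-only libraries were below all both-tumor therapy libraries in both ratios.

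Cap ratios moved over a smaller range. Psme1 to Psme3 was 1.20, 3.62 and 2.09 in both-tumor therapy and 0.741, 0.358 and 0.867 in both-tumor IgG. Psme2 to Psme3 was 1.32, 3.31 and 1.99 in both-tumor therapy and 0.771, 0.304 and 0.930 in both-tumor IgG. Library 2 of intracranial-only IgG had 1.82 for Psme1 to Psme3 and 1.78 for Psme2 to Psme3, above library 1 of both-tumor therapy. The other intracranial-only libraries were below all both-tumor therapy libraries. Each cap ratio exceeded 1 in the same 4 libraries in which Psmb8 exceeded Psmb5. The absolute ratio depends on the gene length behind FPKM, for example 1450 bases for Psmb8 against 3381 annotated exonic bases, but this factor is the same in every library and leaves group differences as they are.

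Summed over the catalytic pairs, Psmb8, Psmb9 and Psmb10 made up 6.93%, 58.3% and 9.41% of the catalytic FPKM in intracranial-only IgG. The share was 6.49%, 9.64% and 45.6% in intracranial-only therapy, 40.6%, 10.4% and 40.6% in both-tumor IgG, and 52.7%, 75.4% and 67.2% in both-tumor therapy. Only both-tumor therapy had the inducible set in the majority in every library. Total catalytic FPKM ran from 411 in the lowest library to 1409 in the highest. This total includes the inducible sum, so it is not independent of the share. The mean of the 7 alpha-ring genes, which build the outer rings shared by both particle types, lay between 142.6 and 201.9 FPKM.

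**Figure D2:**
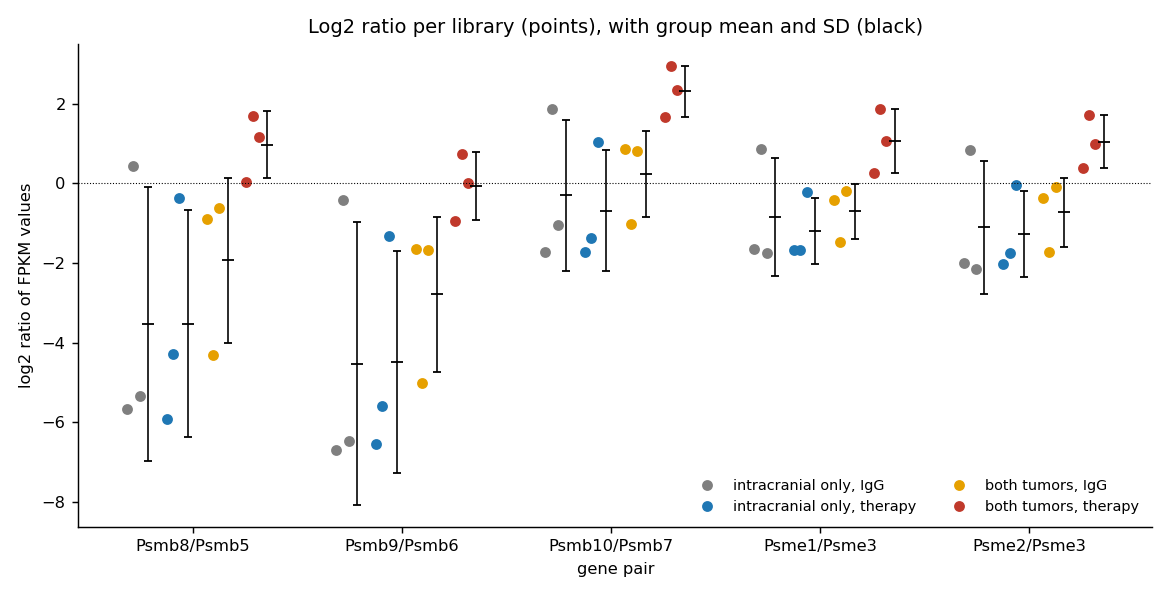
Log2 ratio of FPKM (vertical) for each gene pair (horizontal), 1 point per library coloured by group, with the group mean and SD in black; 0 means equal FPKM. For each pair the 3 both-tumor therapy points lie above all both-tumor IgG and intracranial-only therapy points, and intracranial-only IgG has 1 point within or near their range.

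In mice with both tumors, therapy was set against IgG. The mean log2 ratio was higher under therapy for all 5 pairs, and the groups did not overlap. The difference was 2.91 ± 1.29 (SE, n = 3 against 3) for Psmb8 to Psmb5, 2.72 ± 1.22 for Psmb9 to Psmb6 and 2.09 ± 0.72 for Psmb10 to Psmb7. It was 1.77 ± 0.60 for Psme1 to Psme3 and 1.77 ± 0.63 for Psme2 to Psme3. Each had p = 0.1 in a two-sided exact permutation test over 20 assignments, the smallest p this design allows, and an adjusted p of 0.273 over the 30 ratio tests made. Without library 2 of both-tumor IgG the differences were 1.72, 1.60, 1.46, 1.38 and 1.28.

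The gene-level test, edgeR's quasi-likelihood test over 15925 genes with Benjamini-Hochberg adjustment and a threshold of 0.05, called 0 of the 9 members in this comparison, against 5.39% of all genes. The unadjusted p was below 0.05 for 1 member, Psme3, and for 33.4% of all genes, and DESeq2 called that member alone. Psmb8 had a log2 fold change of 2.30 ± 1.64 (SE, adjusted p = 0.324), Psmb9 2.34 ± 1.67 (0.325) and Psmb10 1.74 ± 0.96 (0.216). Psme1 had 1.37 ± 0.66 (0.168) and Psme2 1.31 ± 0.76 (0.238). Psme3 had a log2 fold change of -0.42 ± 0.14 (0.0726), and Psmb5, Psmb6 and Psmb7 had -0.28, -0.15 and -0.29.

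By library, 6 of the 9 members did not overlap between these groups in normalized CPM, the 5 inducible genes higher and Psmb7 lower, against 38.0% of all genes (17.9% higher and 20.1% lower). The median log2 fold change was 1.31 over the members and 0.02 over all genes. In bulk tumor RNA, a difference in the number of cells of a type cannot be told apart from a difference in RNA per cell.

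In mice with the intracranial tumor only, the same antibodies gave overlapping groups for all 5 ratios. Mean log2 ratios differed by 0.01, 0.04, -0.39, -0.34 and -0.17 for Psmb8, Psmb9 and Psmb10 to their counterparts and for Psme1 and Psme2 to Psme3. The exact permutation p-values were 1, 1, 0.6, 0.8 and 0.9, and each group held 1 high library. The edgeR test called 0 of 9 members and 0.0% of all genes, with 0 members and 13.5% of genes at an unadjusted p below 0.05, and DESeq2 called 0 members. Fitted log2 fold changes were -1.03 for Psmb8 and Psmb9, with standard errors of 1.59 and 1.62. Psme3 was the single member whose groups did not overlap, higher under therapy with a log2 fold change of 0.18 (adjusted p = 0.626), against 23.2% of all genes (8.78% higher and 14.4% lower). Without library 2 of the IgG group the 5 ratio differences were 1.99, 2.09, 0.69, 0.51 and 0.79, and without library 3 of the therapy group they were -1.57, -1.54, -1.25, -0.82 and -0.79. The fitted Psmb8 change was 3.56 without the first and -4.00 without the second.

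Under IgG, both-tumor mice were compared with intracranial-only mice. Mean log2 ratios differed by 1.59, 1.74, 0.52, 0.14 and 0.37, with exact permutation p-values of 0.6, 0.4, 0.8, 0.8 and 0.8. They were 3.58, 3.79, 1.60, 0.99 and 1.34 without library 2 of intracranial-only IgG, and 2.78, 2.86, 1.15, 0.53 and 0.87 without library 2 of both-tumor IgG. The edgeR fold changes of the 5 inducible genes had the opposite sign, from -0.67 for Psmb9 to -0.10 for Psme2, and each had an adjusted p of 1. That fit averages reads, and without library 2 of intracranial-only IgG it gave Psmb8 4.02. No member was called by edgeR or DESeq2, 0 had an unadjusted p below 0.05 and 0 of 9 members had groups apart, against 0.0% of all genes called, 1.18% at that unadjusted p and 4.46% with groups apart (1.68% higher and 2.78% lower).

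Under therapy, both-tumor mice were compared with intracranial-only mice, and here the ratio differences were largest. They were 4.49 ± 1.72 for Psmb8 to Psmb5, 4.42 ± 1.68 for Psmb9 to Psmb6 and 2.996 ± 0.95 for Psmb10 to Psmb7. They were 2.25 ± 0.66 for Psme1 to Psme3 and 2.32 ± 0.73 for Psme2 to Psme3. No pair overlapped between groups, and each exact permutation p was 0.1, the smallest possible, with an adjusted p of 0.273. Without library 3 of intracranial-only therapy the differences were 6.07, 6.00, 3.86, 2.73 and 2.94.

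In the gene-level test 2 of 9 members passed, against 45.4% of all genes. Both were constitutive genes that fell, a share of the members near the 21.0% of all genes that fell. An unadjusted p below 0.05 was found for 3 members and 53.9% of genes. Psmb7 decreased by 0.52 ± 0.14 on the log2 scale (edgeR, adjusted p = 0.0131) and Psme3 decreased by 0.55 ± 0.14 (0.00964). Psmb5 and Psmb6 had -0.31 (0.171) and -0.23 (0.292). The inducible genes had larger fitted changes and larger errors: Psmb8 2.76 ± 1.67 (0.197), Psmb9 2.70 ± 1.70 (0.214), Psmb10 2.02 ± 0.96 (0.108), Psme1 1.60 ± 0.66 (0.0692) and Psme2 1.52 ± 0.76 (0.126). In normalized CPM, all 9 members had groups apart, against 59.9% of all genes (31.4% higher and 28.5% lower), although in FPKM Psmb5 overlapped (90.5 in 1 both-tumor library, 87.4 in 1 intracranial-only library). With library 2 of intracranial-only IgG or library 3 of intracranial-only therapy left out, 5 members passed, with Psmb10, Psme1 and Psme2 higher and Psmb7 and Psme3 lower. Without the second of these libraries the fitted changes of Psmb8, Psmb9, Psmb10, Psme1 and Psme2 were 5.64, 5.79, 3.35, 2.205 and 2.38. A fit of the compared groups alone called 3 members, Psmb7, Psme3 and Psme1 (1.59, adjusted p = 0.0288). Over all genes, 45.4% passed in the main fit, and 4710 to 8128 genes passed without 1 library. The share of all genes in the fit of the compared groups alone is not given here.

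**Figure D3:**
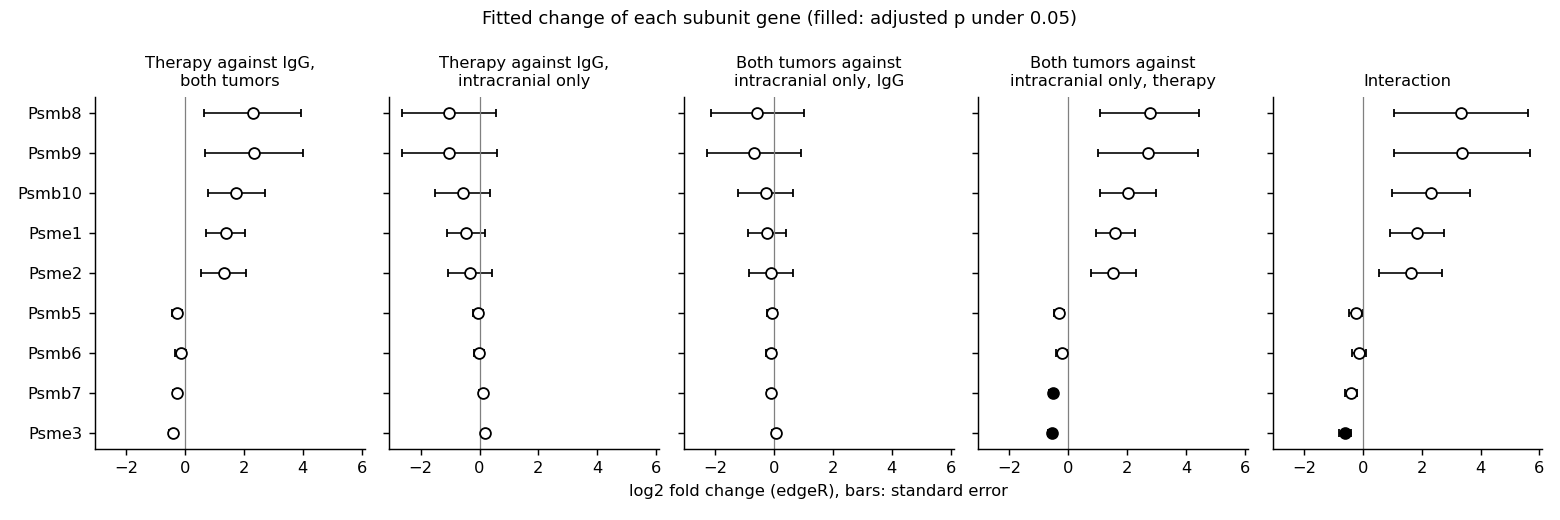
Fitted log2 fold change of each member (horizontal) with its standard error, in 5 panels, 1 per comparison; filled points have an edgeR adjusted p below 0.05. Inducible genes have the larger changes and the wide bars, and the filled points are Psmb7 and Psme3 under therapy (-0.52 and -0.55) and Psme3 in the interaction (-0.60).

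The interaction asks whether the therapy effect differed between both-tumor and intracranial-only mice. For the ratios it was 2.90, 2.68, 2.47, 2.11 and 1.94 on the log2 scale, with exact permutation p-values over 369600 assignments of 0.348, 0.374, 0.206, 0.158 and 0.216. The same differences were 0.92, 0.63, 1.39, 1.26 and 0.98 without library 2 of intracranial-only IgG. They were 1.71, 1.56, 1.85, 1.72 and 1.45 without library 2 of both-tumor IgG, and 4.48, 4.26, 3.34, 2.59 and 2.56 without library 3 of intracranial-only therapy. A test of any difference among the 4 groups gave exact permutation p-values of 0.185, 0.184, 0.123, 0.0941 and 0.134, with adjusted values from 0.273 to 0.346. In the edgeR fit 1 of 9 members passed, against 22.0% of all genes: Psme3, at -0.60 ± 0.19 (adjusted p = 0.0478), the only member among the 39.4% of genes with an unadjusted p below 0.05. Psmb8 and Psmb9 had 3.33 ± 2.28 (0.294) and 3.37 ± 2.32 (0.297). The Psme3 call was lost in 10 of 12 fits that each left out 1 library, with adjusted p-values up to 0.104, and in 8 of these 0 genes of the table passed. The fold stayed between -0.49 and -0.72, and the call was kept without library 3 of both-tumor IgG or library 1 of both-tumor therapy. Without library 2 of intracranial-only IgG the Psmb8 and Psmb9 interactions turned to -1.27 and -1.46, and without library 3 of intracranial-only therapy they were 6.28 and 6.54.

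The comparisons share groups, so their values are not independent of each other. Psmb7 and Psme3 moved with other measured features. The proliferation genes Mki67, Top2a and Ccnb1 summed to 141 to 422 CPM in both-tumor therapy, against 1024 to 1145 in intracranial-only therapy, 593 to 959 in both-tumor IgG and 614 to 896 in intracranial-only IgG. All 3 fell in both-tumor therapy against both-tumor IgG and against intracranial-only therapy, where 4.14% and 21.0% of all genes fell. With RLE size factors 0 genes passed in the first of these comparisons. Neuron markers (Snap25, Syt1, Rbfox3, Tubb3, Stmn2) summed to 362 to 869 CPM in both-tumor therapy, 89.8 to 94.3 in intracranial-only therapy, 93.2 to 420 in both-tumor IgG and 229 to 319 in intracranial-only IgG. All 5 rose in both-tumor against intracranial-only mice under therapy, against 24.4% of all genes, with Rbfox3 at 0 in at least 1 intracranial-only therapy library. The interaction called all 3 proliferation genes lower and all 5 neuron markers higher, against 9.93% and 12.1% of all genes. The part of proliferating cells or brain tissue in the Psmb7 and Psme3 changes was not tested.

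Inducible ratios moved with leukocyte RNA. The pan-leukocyte genes Ptprc, Cd52, Cd53, Laptm5 and Coro1a summed to 31.3, 217 and 37.5 CPM in intracranial-only IgG, 28.5, 34.3 and 87.4 in intracranial-only therapy, 122, 26.0 and 133 in both-tumor IgG and 256, 503 and 510 in both-tumor therapy. Of these 5 genes, 4 rose in both-tumor against intracranial-only mice under therapy, against 24.4% of all genes. With therapy in both-tumor mice all 5 had a fitted change above 0 (median log2 2.13), the sums did not overlap, and 0 of 5 passed the edgeR test, against 1.24% of all genes that rose. T cell markers (Cd3e, Cd3d, Cd3g, Cd8a, Cd8b1, Cd4) ranged from 34.9 to 77.5 CPM in both-tumor therapy and from 0.380 to 15.5 CPM in the other 9 libraries. Cd3e, Cd3g, Cd8b1 and Cd4 were at 0 in at least 1 intracranial-only IgG library. The libraries were not ordered the same way by both measures: library 2 of intracranial-only IgG had a higher Psmb8 to Psmb5 ratio than library 1 of both-tumor therapy (1.35 and 1.03) at a lower leukocyte sum (217 and 256 CPM). Library 3 of intracranial-only therapy stood likewise to library 1 of both-tumor IgG (0.776 and 0.541, at 87.4 and 122 CPM). The part of leukocyte content in the ratio differences was not tested.

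**Figure D4:**
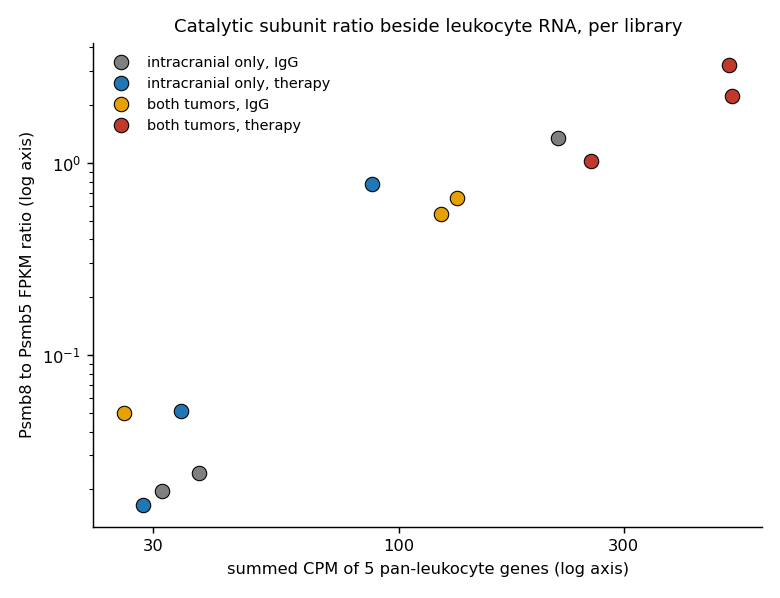
Psmb8 to Psmb5 ratio of FPKM (vertical, log axis) against the summed CPM of 5 pan-leukocyte genes (horizontal, log axis), 1 point per library coloured by group. The 5 libraries with ratios from 0.0166 to 0.0510 sit at 26.0 to 37.5 CPM and the other 7 at 87.4 CPM or more, with ratios from 0.541 to 3.25.

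The remaining 20S and 19S subunits are 33 genes: 7 alpha subunits, 4 non-catalytic beta subunits, 6 ATPases and 16 non-ATPases of the 19S cap, which unfolds and admits ubiquitinated proteins. Like the inducible members, none was called higher in any of the 5 comparisons by the edgeR test. In both-tumor against intracranial-only mice under therapy 18 of 33 were lower, against 21.0% of all genes, and leaving out 1 library in turn gave 10 to 24, the lowest without library 2 of both-tumor therapy. The 6 ATPases were all lower, with a median log2 fold change of -0.55, as were 10 of 16 non-ATPases (-0.48), 2 of 7 alpha subunits (-0.34) and 0 of 4 non-catalytic beta subunits (-0.28), beside 0.03 for all genes. In the interaction 8 of 33 were lower, against 9.93% of all genes. That count was 0 without any 1 of 8 libraries, 3 without library 2 of both-tumor IgG and 13 without its library 3.

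Psmd6, a scaffold subunit of the 19S lid, was the only one of the 33 to pass with therapy in both-tumor mice, against 4.14% of all genes that fell. It had 88.7, 74.2 and 81.1 FPKM under therapy and 110, 123 and 102 under IgG, without overlap, a change of -0.49 ± 0.12 on the log2 scale (edgeR, adjusted p = 0.0498). That is the smallest adjusted p of the comparison, in which 0 genes passed with RLE size factors or without any 1 of 9 libraries. Under therapy it was lower in both-tumor mice by a log2 fold change of -0.74 (0.00455). The ATPases Psmc6 and Psmc2 had -0.78 and -0.66 there, both with an adjusted p of 0.00455. Psmb1, a non-catalytic beta subunit, had -0.19 (0.466) with therapy in both-tumor mice and 138 to 217 FPKM over all libraries.

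**Figure D5:**
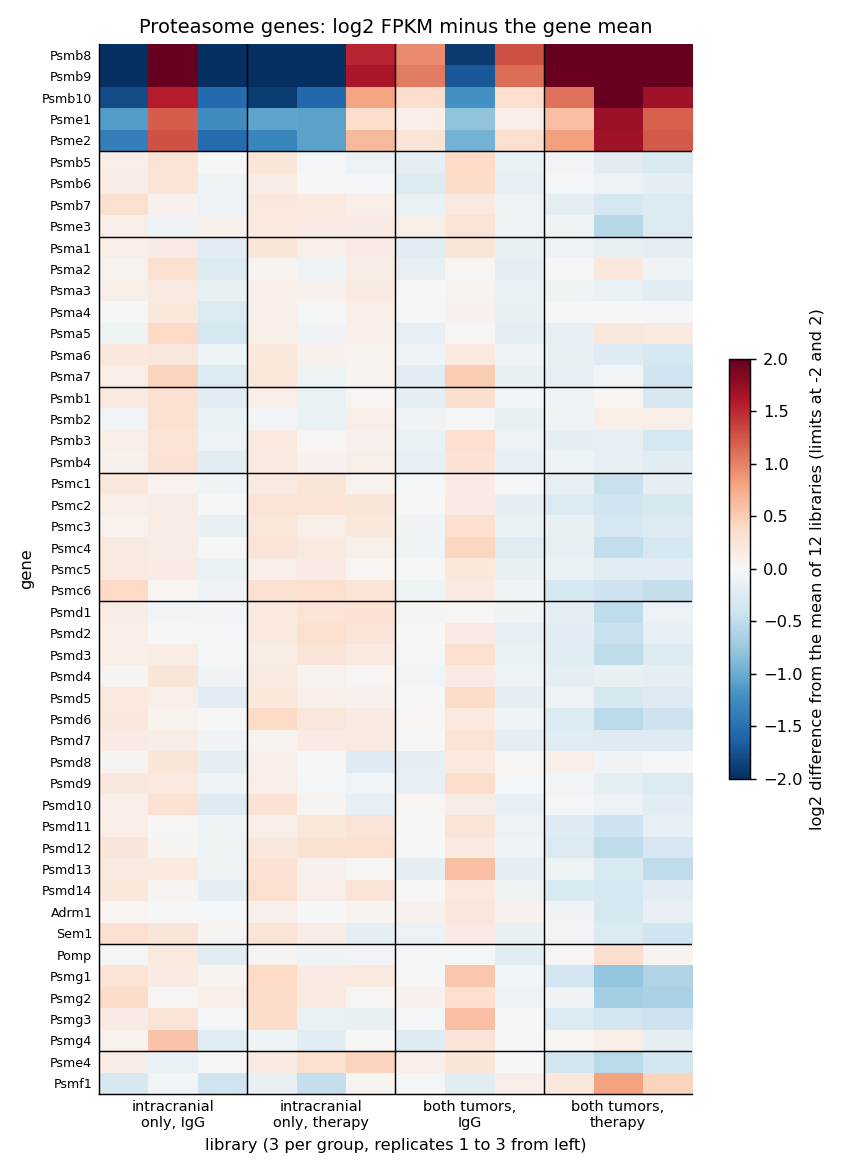
Log2 FPKM minus the gene's mean over 12 libraries (colour, limited at -2 and 2) for proteasome genes (rows: inducible, constitutive partners, alpha ring, beta ring, ATPases, non-ATPases, assembly factors, other caps) in each library (columns, by group). The 5 inducible rows vary most, and most 19S rows are lowest in the both-tumor therapy columns, where 6 of 6 ATPases and 10 of 16 non-ATPases were lower than in intracranial-only therapy.

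Other caps and assembly factors went in different directions. Psme4 encodes the PA200 activator, known from histone turnover, and had 68.4, 61.1 and 68.2 FPKM in both-tumor therapy. It had 95.2, 104 and 87.6 FPKM in both-tumor IgG and 99.7, 110 and 121 in intracranial-only therapy, without overlap. Psme4 fell with therapy in both-tumor mice (log2 fold change -0.56, edgeR adjusted p = 0.0498), in both-tumor against intracranial-only mice under therapy (-0.81, 0.00455) and in the interaction (-0.92, 0.0321). In the first of these comparisons 0 genes passed with RLE size factors, and 0 to 2394 without 1 library. In the interaction 0 to 4367 genes passed without 1 library. Psmf1, the PI31 inhibitor, rose in both-tumor against intracranial-only mice under therapy (0.61, 0.0168), with 31.5 to 47.8 FPKM against 19.6 to 28.3.

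Psmg1, an early chaperone of alpha-ring assembly, had 34.2, 26.1 and 29.4 FPKM in both-tumor therapy and 44.1, 65.7 and 42.8 in both-tumor IgG. Its log2 fold change was -0.80 (edgeR adjusted p = 0.0498), with the limits given for Psme4 in the same comparison. Of the 5 assembly genes, 1 was lower in that comparison, against 4.14% of all genes, and 2, Psmg1 and Psmg2, in both-tumor against intracranial-only mice under therapy, against 21.0%. Pomp, the maturation factor that favours inducible particles, had 137 to 201 FPKM and passed in no comparison, with 0.21 (0.259) for therapy in both-tumor mice. Nfe2l1, which drives constitutive proteasome genes, rose in both-tumor against intracranial-only mice under therapy (0.50, 0.0103). It was 1 of 4 regulators tested, a share near the 24.4% of all genes that rose. Psmb11, the thymus-specific catalytic subunit, had at most 10 reads in a library and was not tested.

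Of the upstream axis, Ifng itself had 0, 48 and 0 reads in intracranial-only IgG, 1, 0 and 62 in intracranial-only therapy, 24, 4 and 11 in both-tumor IgG and 82, 371 and 168 in both-tumor therapy. The libraries with the most Ifng reads in each intracranial-only group were those with high inducible ratios. Irf1, a transcription factor of the interferon response, had 243, 650 and 423 FPKM in both-tumor therapy, 122, 29.2 and 148 in both-tumor IgG, 14.2, 24.4 and 195 in intracranial-only therapy and 14.6, 251 and 15.7 in intracranial-only IgG. All 12 interferon gamma axis genes had a fitted change above 0 with therapy in both-tumor mice, with a median of 1.53, but 1 of 12 passed, against 1.24% of all genes that rose. That was Ifngr1, the receptor chain, at 0.69 (edgeR adjusted p = 0.0498), with the limits given for Psme4 in the same comparison. Ifng had 3.96 ± 1.77 (0.147), Irf1 2.15 ± 1.23 (0.234) and Nlrc5, the class I transactivator, 1.53 ± 1.28 (0.397).

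Class I loading genes take up the peptides that proteasomes make. Of 11, 9 had a fitted change above 0 with therapy in both-tumor mice (median 1.96), and 0 passed by edgeR, against 5.39% of all genes. H2-K1, a class I heavy chain, had 2.53 ± 1.17 (adjusted p = 0.155). Tap1 had 123, 309 and 221 FPKM in both-tumor therapy and 72.4, 11.5 and 80.0 in both-tumor IgG, with a log2 fold change of 2.01 ± 1.50 (0.344). Canx, a chaperone of class I folding, was the only one called in any comparison, lower in both-tumor against intracranial-only mice under therapy (-0.54, 0.0131). There 45.4% of all genes were called, 21% of all genes lower.

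Likeness across the 12 libraries was described by Pearson's r of log2 CPM, without a test, since all genes share the libraries, their composition and a division into low and high ones. Psmb8 and Psmb9 had r = 0.998 with each other, and the 5 inducible members had r between 0.970 and 0.998 among themselves. Psmb5 and Psmb6 had r = 0.942, and Psmb7 and Psme3 0.841. Between the sets r was below 0 for each pair, from -0.802 for Psme1 and Psme3 to -0.340 for Psme1 and Psmb6.

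Genes closest to Psmb8 were Irgm1 (0.9973), Ifi47 (0.997), Tap1 (0.9961), Gbp6 and Gbp7, and those closest to Psmb9 were Tap1 (0.9972), Irgm1, Ifi47, Irgm2 and Igtp. Most of these encode interferon-inducible GTPases. For Psmb10 they were Socs1 (0.9964), Ube2l6, Tapbpl, H2-DMb1 and Tapbp. For Psme2 they were Tapbpl (0.996), Parp9, Ube2l6, H2-DMb1 and Ifi35, and for Psme1 Idnk (0.9956), Bst2, Ifi35, H2-T22 and C1ra. Constitutive members had other neighbours: Hras (0.9771) and Mrpl49 for Psmb5, Ppib (0.9634) for Psmb6, Eed (0.9774), Stoml2 and the 19S gene Psmc6 for Psmb7, and Rbm19 (0.995), Prpf4 and Srsf1, genes of ribosome building and splicing, for Psme3.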

How the data were processed

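RNA-seq of 12 intracranial tumors was analysed from gene-level tables. Per the submitters' processing notes, the authors used TopHat2 2.0.12, Bowtie2 2.2.3 and HTSeq 0.6.1 and name GRCm38 and mm10. The deposited count table holds raw read counts per Ensembl gene. The deposited FPKM values equalled count over gene length and library total within a relative tolerance of 1e-06 for 16062 genes. Symbols matched 46488 of 47069 identifiers, and Shfm1 was matched as Sem1.

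Counts were fitted with edgeR 4.0.16 (R 4.3.3): TMM, filterByExpr with minimum count 10 and total 15, 4 group means over 12 libraries, 15925 genes, common dispersion 0.112, Benjamini-Hochberg threshold 0.05. Standard errors are the fold change over the root of F. The test was checked on simulated counts. Ratios were log2 FPKM differences per library, with exact permutation tests. Alternatives were DESeq2 1.42.0, limma 3.58.1 on log2 FPKM with pseudocounts 1 and 0.1, RLE factors, no filter, fits of the compared groups alone, medians and leaving out each library.

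Members and lists were chosen with earlier results of these data known. Named genes were the members, up to 2 genes of each list by smallest p in 2 comparisons, 10 genes reported always, and the 5 genes most like each member. One gene that meets the rule is not reported here.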

Additional observations from a re-analysis of the deposited data

Results flagged for a closer look

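The therapy effect on Psme3, the PA28 gamma gene, differed between both-tumor and intracranial-only mice by -0.60 on the log2 scale (edgeR interaction, adjusted p = 0.0478). It was 1 of 9 members called in that test, against 22% of all genes (9.93% lower). In both-tumor mice the effect was -0.42 and in intracranial-only mice 0.18, and neither passed the threshold on its own. Psme3 was lower than the lowest both-tumor IgG library in 2 of 3 both-tumor therapy libraries, and higher than the highest intracranial-only IgG library in 3 of 3 intracranial-only therapy libraries. The call was lost in 10 of 12 fits without 1 library, in which the value stayed between -0.49 and -0.66, and in 8 of these 0 genes of the table passed. By limma it was also lost, with adjusted p-values of 0.0539 and 0.0535 at pseudocounts 1 and 0.1.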

How the results depend on the processing

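No paired analysis was possible because the labels give no replicate number, batch or day that could pair libraries, and replicates were numbered in accession order. All 5 ratio differences for therapy in both-tumor mice and for both-tumor against intracranial-only mice under therapy kept their direction in every alternative run. Because these groups did not overlap, leaving out a library or taking medians could not have reversed them. Ratios of raw counts differ from FPKM ratios almost only by a fixed length factor. Members called for therapy in both-tumor mice were 0 by edgeR and 1 by DESeq2 (Psme3), and 0 to 1 without 1 library. For both-tumor against intracranial-only mice under therapy they were 2, with 4 by limma at either pseudocount (Psmb10, Psme1, Psmb7, Psme3) and 2 to 5 without 1 library. The main fit called 45.4% of all genes in that comparison, and the share by limma is not given here. In the interaction they were 1, with 0 by limma at either pseudocount and 0 to 1 without 1 library.

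Therapy in intracranial-only mice gave Psmb5 0.0022 and Psmb6 0.033 with no filter, and ratio differences of -0.056 and -0.045 for Psmb8 to Psmb5 and Psmb9 to Psmb6 from FPKM + 1. Under IgG, limma gave Psmb8 1.21, Psmb9 1.34, Psmb10 0.40, Psme1 0.18 and Psme2 0.41 at pseudocount 1, and 1.46, 1.58, 0.42, 0.19 and 0.42 at pseudocount 0.1, and medians over replicates gave ratio differences of 4.47 and 4.79 for Psmb8 to Psmb5 and Psmb9 to Psmb6. Without 1 library, log2 fold changes for therapy in intracranial-only mice ran for Psmb8 -4.00 to 3.56, Psmb9 -4.22 to 3.80, Psmb10 -1.97 to 1.35, Psmb5 -0.16 to 0.0167, Psmb6 -0.12 to 0.0645, Psme1 -1.13 to 0.80, Psme2 -1.24 to 1.20. Log2 ratio differences for therapy in intracranial-only mice ran for Psmb8 to Psmb5 -1.57 to 1.99, Psmb9 to Psmb6 -1.54 to 2.09, Psmb10 to Psmb7 -1.25 to 0.69, Psme1 to Psme3 -0.82 to 0.51, Psme2 to Psme3 -0.79 to 0.79. Log2 fold changes for both-tumor against intracranial-only mice under IgG ran for Psmb8 -1.14 to 4.02, Psmb9 -1.24 to 4.15, Psmb10 -0.75 to 1.63, Psmb5 -0.32 to 0.0416, Psmb6 -0.36 to 0.0329, Psmb7 -0.26 to 0.0239, Psme1 -0.62 to 1.02, Psme2 -0.52 to 1.41, Psme3 -0.0654 to 0.17. Log2 ratio differences for both-tumor against intracranial-only mice under IgG ran for Psmb8 to Psmb5 0.52 to 3.58, Psmb9 to Psmb6 0.66 to 3.79, Psmb10 to Psmb7 -0.19 to 1.60, Psme1 to Psme3 -0.31 to 0.99, Psme2 to Psme3 -0.15 to 1.34. Log2 fold changes for the interaction ran for Psmb8 -1.27 to 6.28, Psmb9 -1.46 to 6.54, Psmb5 -0.35 to 0.0142, Psmb6 -0.27 to 0.13. Log2 fold changes for therapy in both-tumor mice ran for Psmb6 -0.29 to 0.11. Where a fit leaves 2 libraries in a group, their spread is assumed to match that of the others, and the cause of these reversals was not tested.

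Over all genes, the 858 calls for therapy in both-tumor mice were 3323 by DESeq2, 2630 and 1759 by limma, 0 with RLE factors, with no filter or in a fit of both groups alone, and 0 to 2394 without 1 library. In intracranial-only mice the 0 calls were 1030 by DESeq2 and 839 in a fit of both groups alone, and 1002 without library 2 of both-tumor IgG. The 3505 interaction calls were 0 to 4367 without 1 library, and the 7231 under therapy 4710 to 8128. The other 20S and 19S genes, counted after the data were seen, numbered 1 lower for therapy in both-tumor mice, 6 by DESeq2, 5 and 4 by limma, 0 to 8 without 1 library.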
